A study of Mus musculus with 37 samples.

Results

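A set of 10 genes of the mouse PRAME family was followed from the fully grown oocyte through the egg and the 1-cell embryo to the 2-cell stage: Pramel1, Pramel3, Pramel4, Pramel5, Pramel6, Pramel7, Pramef8, Pramef12, Pramef17 and Pramef25. They were taken by symbol from the deposited table, and all 10 were among its 55401 genes. Another 43 genes of the table were matched to the family by their RefSeq names, by older symbols or, for 12 of them, by the Entrez link of their GENCODE transcripts. They include Pramef12os, an antisense gene matched by its symbol alone, which did not pass the filter at any stage. RefSeq now calls Pramef8 Pramel12, Pramef12 Pramel13, Pramef17 Pramel14 and Pramef25 Pramel16. The symbols of the table are used here.

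The study asked what loss of BAP1 does to the transcripts of mouse oocytes and early embryos. BAP1 is a deubiquitinase that takes ubiquitin off histone H2A, where Polycomb complexes place it. Fully grown oocytes (FGO) and metaphase II eggs (MII) came from Bap1flox/flox controls (2 libraries at each stage) and from Gdf9-iCre, Bap1flox/flox conditional knockouts (3 libraries at each stage), so every female carried the floxed alleles and the Cre, driven by the oocyte gene Gdf9, marked the knockouts. Late 1-cell (L1C), early 2-cell (E2C) and late 2-cell (L2C) embryos had mothers of those genotypes and B6 fathers, so an intact paternal Bap1 allele entered every embryo, and they are called maternal knockouts. Controls had 2 libraries at L1C, 3 at E2C and 2 at L2C, and maternal knockouts had 3 at each stage. These 26 libraries were made from total RNA. A further 11 poly(A) libraries came from epiblast, visceral endoderm and extraembryonic ectoderm at embryonic day 6.5, with PWK fathers, and are described without a test. Ages of the animals, the number of cells in a library and whether replicates came from separate females are not given in the labels used here, so the p-values below measure only the spread between these libraries.

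PRAME proteins are built of leucine-rich repeats, and several of them serve as substrate receptors of ubiquitin ligases assembled on CUL2. The family has expanded into large clusters of recent duplicates in the mouse genome, and most members are transcribed in germ cells or in the earliest embryo. PRAMEL7, the member studied most in this setting, is known from the inner cell mass and from embryonic stem cells, where it sends UHRF1, the cofactor of maintenance DNA methylation, to degradation. PRAMEL6 has been placed in the same pathway, and Pramef12 is known for its role in male germ cells.

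Values are FPKM, fragments per kilobase of transcript on the scale the authors deposited, which corrects for length, so that levels of different genes can be set side by side. The read depth behind them is unknown. Differences are between group means of log2(FPKM + 1), a scale that understates the change of low genes, with their standard errors. They were tested with limma in each stage alone, leaving out genes that did not reach 1 FPKM in 2 of the libraries compared, and a gene is said to have risen or fallen where its Benjamini-Hochberg adjusted p over all genes tested was under 0.05. Bap1 itself checked the labels. It ranged from 16.3 to 29.9 FPKM in the control libraries and from 3.76 to 7.05 FPKM in the knockout libraries up to E2C, and at L2C it was 20.9 to 24.4 FPKM in controls against 9.69 to 11.7 FPKM in maternal knockouts, with no overlap at any stage. Of 9 markers of granulosa and cumulus cells, 6 were under 1 FPKM in every library, Foxl2, Amh and Fshr among them. The summed level of the 9 was 19.6 to 40.6 FPKM in control libraries and 11.1 to 31.7 FPKM in knockout libraries, with every knockout library below the controls of its stage, and its part in the results was not tested. Only Cyp19a1 and Nr5a2 among the 9 passed the filter in FGO and at E2C, and only Nr5a2 did at L2C. From E2C to L2C Nr5a2 rose and Cyp19a1 fell in both genotypes, so the sum does not follow granulosa and cumulus cells alone. Oocyte markers, 8 in all, summed to at least 2189 FPKM in every FGO and MII library, and no marker among them was under 1 FPKM throughout. Changes in bulk libraries have a further limit: fewer cells of a type and less RNA per cell cannot be told apart.

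On chromosome 4 lie 7 of the 10 genes, in the order Pramel1, Pramef8, Pramef25, Pramef17, Pramel4, Pramel5 and Pramef12, within 1014 kb (chr4:143394428-144408464, GENCODE M21 on GRCm38). Pramel6 and Pramel7 are neighbours on chromosome 2, and Pramel3 is on the X chromosome. All 10 are annotated as protein coding, with coding sequences of 1374 to 1509 bases. Across the 45 pairs of members, 56.9 to 93.7% of aligned coding bases were the same, with a median of 63.1%. The highest values came from a pair on chromosome 4 and a pair split between chromosomes. Pramel4 and Pramel5, both on chromosome 4 and with other family genes between them, shared 93.7% of 1433 aligned coding bases. Pramel7 on chromosome 2 and Pramef17 on chromosome 4 shared 80.9%.

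**Figure D1:**
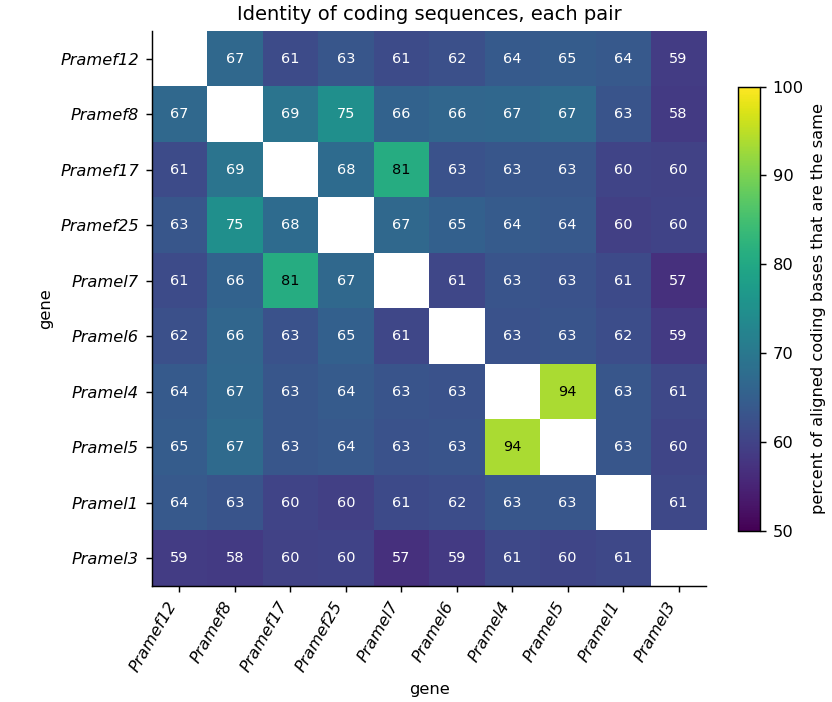
Identity of the coding sequences of the 10 genes, as the percent of aligned coding bases that are the same, for each pair of genes (rows and columns). The brightest cells are Pramel4 with Pramel5 (93.7%) and Pramel7 with Pramef17 (80.9%), while the median over the 45 pairs is 63.1%.

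The same pairs stand out upstream of the genes. RefSeq lists a start site for 9 of the 10, and the 250 bases before it were taken from its GRCm38.p6 promoter table for each. Pramel4 and Pramel5 matched at 88.0% of these bases and Pramel7 and Pramef17 at 81.2%, against 47.2 to 57.2% for the remaining pairs. The windows of these 4 genes are printed because each pair holds one gene that fell strongly in knockout embryos at L2C and one that did not pass the test. Those of Pramel6, which also fell, and of Pramef25 and Pramef12, which rose, are printed for contrast. Each reads from 5′ to 3′ on the strand of its gene and ends at the base before the start site, and capitals mark matches to the motifs named after the sequences.

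The Pramel7 window is chr2:87492419-87492668 on the minus strand, inside the GENCODE gene, which also has an earlier first exon, and the Pramef17 window is chr4:143994370-143994619 on the minus strand.
Pramel7: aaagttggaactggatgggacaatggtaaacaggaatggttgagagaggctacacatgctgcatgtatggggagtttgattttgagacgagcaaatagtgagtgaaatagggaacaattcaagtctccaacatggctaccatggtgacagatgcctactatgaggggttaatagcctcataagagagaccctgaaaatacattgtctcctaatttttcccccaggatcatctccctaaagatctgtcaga
Pramef17: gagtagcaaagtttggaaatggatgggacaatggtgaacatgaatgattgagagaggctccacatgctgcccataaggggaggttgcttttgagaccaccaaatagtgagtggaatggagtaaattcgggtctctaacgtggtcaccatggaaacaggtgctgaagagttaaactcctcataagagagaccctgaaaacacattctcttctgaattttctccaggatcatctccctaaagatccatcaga
The Pramel4 window is chr4:144058875-144059124 on the plus strand, and the Pramel5 window is chr4:144280467-144280716 on the minus strand.
Pramel4: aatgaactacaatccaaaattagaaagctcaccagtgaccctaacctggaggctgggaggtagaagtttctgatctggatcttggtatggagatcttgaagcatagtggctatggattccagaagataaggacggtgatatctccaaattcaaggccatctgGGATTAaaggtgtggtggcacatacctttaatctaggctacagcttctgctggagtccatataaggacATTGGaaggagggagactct
Pramel5: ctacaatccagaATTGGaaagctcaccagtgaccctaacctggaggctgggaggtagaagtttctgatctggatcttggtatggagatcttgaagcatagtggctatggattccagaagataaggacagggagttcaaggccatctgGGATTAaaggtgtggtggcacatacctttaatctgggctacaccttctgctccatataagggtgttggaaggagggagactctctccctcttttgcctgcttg
The Pramel6 window is chr2:87506315-87506564 on the plus strand, the Pramef25 window chr4:143951017-143951266 on the minus strand, and the Pramef12 window chr4:144408465-144408714 on the minus strand.
Pramel6: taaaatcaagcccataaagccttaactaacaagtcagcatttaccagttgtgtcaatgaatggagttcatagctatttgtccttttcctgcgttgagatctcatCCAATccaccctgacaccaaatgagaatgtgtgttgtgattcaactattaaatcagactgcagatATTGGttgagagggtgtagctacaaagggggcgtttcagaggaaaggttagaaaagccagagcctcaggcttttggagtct
Pramef25: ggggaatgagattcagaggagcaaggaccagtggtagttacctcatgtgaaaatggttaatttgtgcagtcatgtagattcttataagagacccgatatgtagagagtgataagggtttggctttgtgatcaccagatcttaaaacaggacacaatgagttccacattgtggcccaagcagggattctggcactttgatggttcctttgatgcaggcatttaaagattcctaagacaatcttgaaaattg
Pramef12: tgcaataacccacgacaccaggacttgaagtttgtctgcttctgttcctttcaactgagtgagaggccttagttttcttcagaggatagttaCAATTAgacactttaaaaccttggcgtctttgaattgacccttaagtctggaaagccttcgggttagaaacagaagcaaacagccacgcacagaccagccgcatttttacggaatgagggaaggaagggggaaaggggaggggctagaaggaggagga

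For motifs, both strands were searched in windows that reach from 250 bases before to 50 bases after the start site. The TATA box was searched as TATAAA, which 13.6% of 32851 RefSeq windows of that length hold. The core site of OTX-type homeodomain proteins was searched as GGATTA, held by 7.06% of the windows. A second homeodomain core, searched as TAATTG, was in 8.0%. The nuclear receptor half-site AAGGTCA was in 4.72%, and the NF-Y box CCAAT was in 37.4%. The OTX-type site was found in Pramel4 and in Pramel5, on the strand of the gene, with its first base 88 and 103 bases before the start. The second homeodomain core was found in Pramef12 on the opposite strand. The NF-Y box was found in Pramel1, Pramel3, Pramel4, Pramel5 and, at 2 places, Pramel6. The windows of Pramel7, Pramef17 and Pramef25 held none of these letters. No matches overlapped, and a match describes the sequence only.

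Near-identical copies limit how far single values can be assigned. For each gene the exonic sequence was divided into words of 50 bases, and the share found in any other annotated gene was counted. That share was 0% for Pramel1, Pramel6, Pramef8 and Pramef12 and 1.43% for Pramel7. It was 87.4% for Pramel4, mostly with Gm13102, 81.8% for Pramel3 and 73.5% for Pramef17, all of it with Gm13128. For Pramef25 it was 63.6%, spread over several genes, and for Pramel5 25.9%, mostly with Pramel4. How the authors assigned reads that fit more than one gene is not given in the sources used here, so values of these 5 genes are uncertain. Pramef12 overlaps Pramef12os on the opposite strand, and whether counting used the strand is also not given.

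Before the 2-cell stage, 3 of the 10 genes were above 1 FPKM in every library and 7 were under 1 FPKM. In the 15 libraries of FGO, MII and L1C, Pramef12 was at 117 to 184 FPKM, Pramef8 at 5.43 to 10.9 FPKM and Pramef17 at 1.94 to 5.11 FPKM. Each of the other 7 stayed under 1 FPKM in all 15 libraries, with 0.352 FPKM, in Pramef25, as the highest value. Pramel3 was listed at 0 in 12 of the 15, and Pramel6 was listed at 0 in all L1C libraries. The 10 genes together summed to 154 ± 3.82 FPKM (SD, n = 2) in control FGO, of which Pramef12 made up 92.5%.

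**Figure D2:**
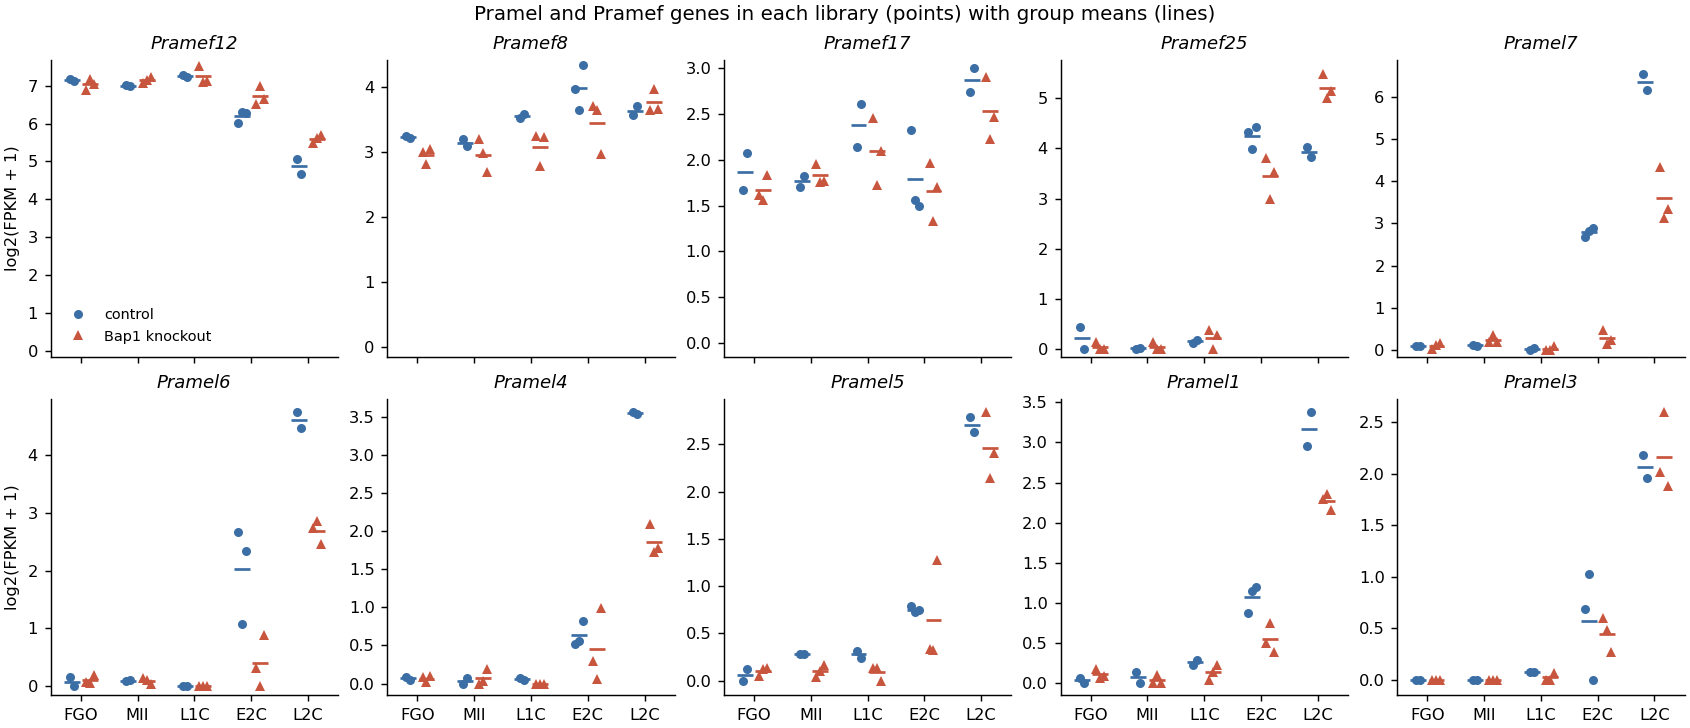
Level of each gene as log2(FPKM + 1) in every one of the 26 total RNA libraries, by stage. Circles are control libraries, triangles are Bap1 knockout libraries (conditional in FGO and MII, maternal from L1C), and short lines are group means. Pramef12, Pramef8 and Pramef17 are above 1 FPKM from FGO, and the other 7 genes first exceed 1 FPKM at E2C or L2C. The vertical scales differ between panels.

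Pramef12 (ENSMUSG00000028591.11, chr4:144391674-144408464) was the most abundant member in oocytes, eggs and 1-cell embryos. Control FGO libraries held 145 and 139 FPKM and conditional knockout FGO libraries 117, 144 and 131 FPKM. In MII eggs the values were 129 and 126 FPKM in controls and 133, 140 and 148 FPKM in knockouts, so that all 3 knockout values lay above the controls. At L1C the controls were at 154 and 150 FPKM and the knockouts at 184, 136 and 138 FPKM, which overlap. None of these differences passed the test, the largest being 0.14 ± 0.06 at MII (adjusted p = 0.21).

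Pramef8 (ENSMUSG00000046862.14, chr4:143412426-143421091) stood at a much lower level. It was at 8.45 and 8.30 FPKM in control FGO and at 6.98, 5.99 and 7.24 FPKM in knockout FGO, all below the controls. MII eggs had 8.12 and 7.53 FPKM in controls and 8.18, 6.89 and 5.43 FPKM in knockouts, which overlap. In L1C embryos controls had 10.5 and 10.9 FPKM and knockouts 8.46, 5.83 and 8.31 FPKM, again without overlap. The differences were -0.28 ± 0.11 in FGO (adjusted p = 0.18) and -0.47 ± 0.16 in L1C (adjusted p = 0.0908), and neither passed the test.

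Pramef17 (ENSMUSG00000078509.1, chr4:143991119-143994369) was the lowest of the 3 maternal members. It was at 2.18 and 3.20 FPKM in control FGO against 2.08, 1.94 and 2.57 FPKM in knockouts. In MII it was at 2.26 and 2.54 FPKM against 2.89, 2.39 and 2.42 FPKM, and in L1C at 3.42 and 5.11 FPKM against 4.51, 2.32 and 3.30 FPKM. The groups overlapped at all 3 stages.

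In all, 0 of the 3 members tested passed the threshold in FGO, MII or L1C in limma's test. At an unadjusted p under 0.05 the count was 1 in FGO, 0 in MII and 1 in L1C, Pramef8 both times. Over all genes, 1.34% rose and 7.00% fell in knockout FGO, 4.17% rose and 7.84% fell in knockout MII, and 6.22% rose and 8.71% fell in knockout L1C. The share of these calls that rose depends on the scaling: it was 16.1% in FGO and 34.8% in MII, against 28.8% and 47.6% with median centring, and 41.6% in L1C, against 53.1% with scaling to a common total. From FGO to MII in controls 0 of 3 members passed the test, also at an unadjusted p under 0.05, with 0.624% of all genes up and 3.60% down. From MII to L1C in controls 0 of 3 passed, and 1 did at an unadjusted p under 0.05, with 9.69% up and 18.0% down. At this step both L1C controls were above both MII controls for each of the 3 genes. How many of all genes did so was not counted, so that nothing is read from it. With median centring 3 of 3 passed, where over all genes 2788 rose and 1455 fell, against 1145 and 2124 in the main test. Without L1C knockout replicate 1 the count was 2, and without L1C knockout replicate 2 it was 1. From MII to L1C the share of calls over all genes that rose was 35.0% in controls and 30.1% in knockouts, against 65.7% and 61.6% with median centring. In knockouts 0 of 3 changed at either step, also at an unadjusted p under 0.05, against 4.49% up and 6.46% down from FGO to MII and 5.15% up and 12.0% down from MII to L1C over all genes. A shift of the knockout difference between these stages was found for 0 of the 3 members, also at an unadjusted p under 0.05. Over all genes it was found for 0.00% between FGO and MII (0 of 12016 in limma, 1080 at an unadjusted p under 0.05) and for 0.0508% between MII and L1C.

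At E2C, around the first wave of embryonic transcription, the levels of 5 members changed in controls. Of the 7 members tested, 4 rose from L1C to E2C (Pramef25, Pramel7, Pramel6 and Pramel1) and 1 fell (Pramef12), against 17.6% and 31.3% of all genes. The median change of all genes tested was -0.17. In maternal knockouts 1 rose (Pramef25) and 1 fell (Pramef12) over the same step, against 16.8% and 30.8% of all genes. Of all genes called in controls 35.9% rose, against 53.4% with median centring, and in knockouts 35.2%, against 58.3%. Whether a gene entered this test depended on its level at E2C, since the risers were near 0 before it.

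Pramel7 (ENSMUSG00000025839.3, chr2:87489087-87497093) differed most at E2C. The control libraries held 5.41, 6.06 and 6.37 FPKM and the maternal knockout libraries 0.389, 0.108 and 0.178 FPKM. Every knockout value was under 1 FPKM and the groups were far apart, with a control mean 26.5 times the knockout mean. On the log2(FPKM + 1) scale Pramel7 fell by 2.51 ± 0.22 in the knockouts (adjusted p = 0.000549). It rose by 2.77 ± 0.19 from L1C to E2C in controls (adjusted p = 1.14e-06), while the change in knockouts was 0.26 ± 0.17 (adjusted p = 0.226). The 2 changes differed from each other by -2.51 ± 0.25 (adjusted p = 0.00173). Pramel7 was 1 of 7 members with such a shift, and 0.337% of all genes had one. It passed the filter of this fit only through the E2C controls, where it was high. The directions of its rise and of the shift were thus set by the filter, and nothing is read from the count.

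Pramel6 (ENSMUSG00000025838.12, chr2:87506565-87510872), its neighbour, was at 5.35, 1.12 and 4.03 FPKM in the E2C controls. The knockouts had 0.246, 0 and 0.846 FPKM. All 3 lay below the lowest control, although that control, at 1.12 FPKM, was close to the highest knockout. Pramel6 fell by 1.63 ± 0.42 (adjusted p = 0.0444). That call was lost in the 4 fits without control replicate 1, control replicate 3, knockout replicate 1 or knockout replicate 2 (adjusted p = 0.14, 0.114, 0.0956 and 0.121). It was also lost with a pseudocount of 0.1, with no filter and with eBayes without trend, so that it passed in 7 of 14 alternatives. Pramel7 and Pramel6 were the 2 members of 7 that fell at E2C, and 0 rose. Both passed the filter only through the controls, so that the direction of any difference was set by the filter and the count is a description. Over all genes 5.87% fell and 4.25% rose, so that 42.0% of the calls rose, against 57.2% with scaling to a common total.

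Pramef25 (ENSMUSG00000078511.3, chr4:143948580-143951016) was second to Pramef12 at E2C by its group means, although its values overlapped those of Pramef8 in both genotypes. It was at 19.0, 14.8 and 20.5 FPKM in controls and 13.1, 6.99 and 10.6 FPKM in knockouts. The groups did not overlap, and the difference of -0.79 ± 0.23 did not pass the test (adjusted p = 0.0579). Without knockout replicate 1 it did (-0.98, adjusted p = 0.0447), as it did with a replicate block (adjusted p = 0.045) and with all 26 libraries in 1 fit (adjusted p = 0.00274). From L1C to E2C it rose by 4.09 ± 0.24 in controls (adjusted p = 5.76e-07) and by 3.23 ± 0.22 in knockouts (adjusted p = 1.28e-06).

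Pramef12 was still the most abundant member at E2C. The control libraries held 63.3, 77.4 and 76.2 FPKM and the knockout libraries 91.4, 127 and 100.1 FPKM. Every knockout value was above every control value, and the difference of 0.54 ± 0.15 just missed the threshold (adjusted p = 0.0506). It fell from L1C to E2C in both genotypes, by 1.07 ± 0.16 in controls (adjusted p = 0.000211) and by 0.52 ± 0.14 in knockouts (adjusted p = 0.0107), and these 2 changes were not shown to differ (adjusted p = 0.262).

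The remaining members did not pass the test at E2C or were too low for it. Pramef8 was at 14.5, 11.5 and 19.1 FPKM in controls against 12.0, 11.5 and 6.78 FPKM in knockouts, with overlap. Pramef17 was at 4.03, 1.94 and 1.81 FPKM against 2.89, 1.51 and 2.26 FPKM, also with overlap. Pramel1 had 0.835, 1.21 and 1.29 FPKM in controls and 0.417, 0.679 and 0.305 FPKM in knockouts, which do not overlap, with a difference of -0.53 ± 0.24 (adjusted p = 0.186). Pramel4 had 0.432, 0.469 and 0.77 FPKM against 0.228, 0.046 and 0.99 FPKM. Pramel5 had 0.727, 0.654 and 0.676 FPKM against 0.263, 0.252 and 1.43 FPKM. In both of these genes knockout replicate 3 lay above the controls and the other 2 knockout libraries below them. Pramel3 reached at most 1.04 FPKM in controls and 0.512 FPKM in knockouts.

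**Figure D3:**
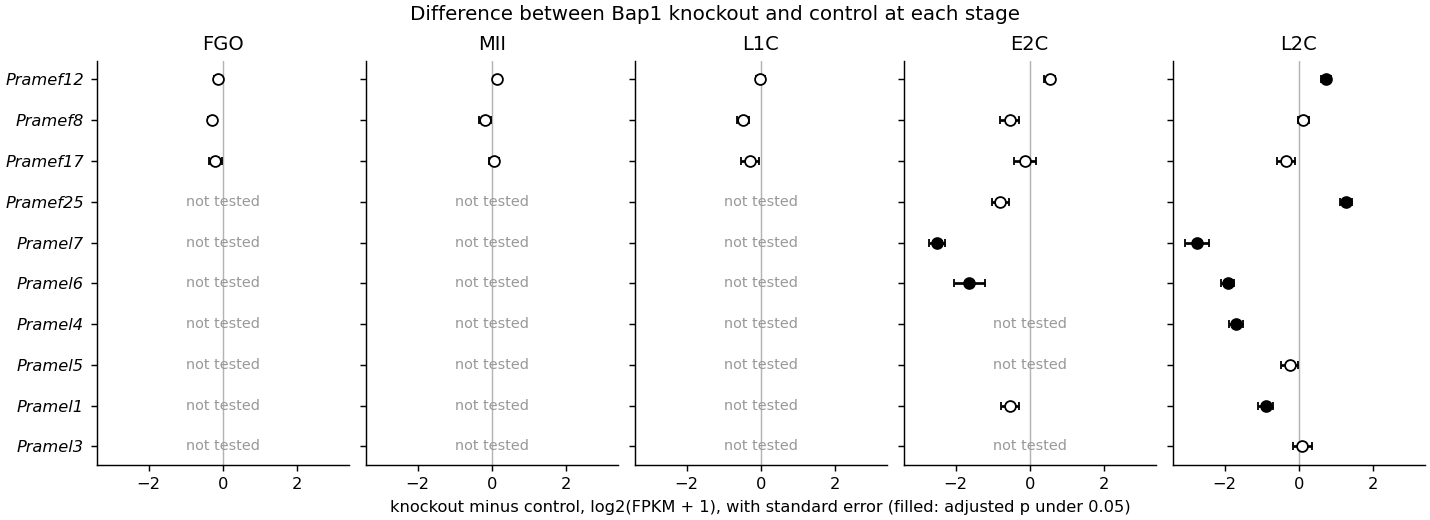
Difference between Bap1 knockout and control means of log2(FPKM + 1) for each gene (rows) at each stage (panels), with standard errors. Filled points have an adjusted p under 0.05, and genes under the filter of 1 FPKM in 2 libraries are marked as not tested. The filled points lie at E2C (Pramel7 at -2.51 and Pramel6 at -1.63) and at L2C, where 4 genes fell and 2 rose.

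By L2C all 10 members passed the filter, and 6 of them differed between genotypes. Pramel7, Pramel6, Pramel4 and Pramel1 fell in maternal knockouts, and Pramef25 and Pramef12 rose. Over all genes at this stage 19.5% fell and 19.0% rose, so that 49.4% of the calls rose, against 61.2% with scaling to a common total. In controls, 7 of the 10 rose from E2C to L2C (Pramel1, Pramel3, Pramel4, Pramel5, Pramel6, Pramel7 and Pramef17) and Pramef12 fell, while 30.7% of all genes rose and 23.9% fell. Pramel3, Pramel4 and Pramel5 entered this fit only through their L2C values, so that nothing is read from their count. The rise of Pramef17 was lost without L2C control replicate 2 (0.95, adjusted p = 0.0722) and with a replicate block (adjusted p = 0.128). In knockouts 8 rose, those 7 with Pramef25, and Pramef12 fell, against 29.3% and 19.8% of all genes. Of all genes called, 56.3% rose in controls and 59.6% in knockouts, against 43.3% and 39.3% with median centring. The 6 members that differed between genotypes kept their direction under every scaling tried.

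Pramel7 became the most abundant member in control embryos. It reached 92.1 and 70.4 FPKM in controls and 19.2, 7.78 and 9.13 FPKM in maternal knockouts. The highest knockout library was well below the lower control, and Pramel7 fell by 2.75 ± 0.32 (adjusted p = 0.000627). The control mean was 6.75 times the knockout mean. Both genotypes rose from E2C, by 3.56 ± 0.30 in controls (adjusted p = 1.27e-06) and by 3.32 ± 0.26 in knockouts (adjusted p = 1.57e-06). The knockout difference at L2C was thus close to that at E2C on this scale, with a shift of -0.24 ± 0.40 (adjusted p = 0.738), a value whose sign turned with a pseudocount of 0.1 and with scaling to a common total.

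Pramel6 followed at a lower level. Its L2C values were 25.7 and 21.2 FPKM in controls and 5.64, 6.26 and 4.52 FPKM in knockouts. The groups were far apart, and Pramel6 fell by 1.92 ± 0.17 (adjusted p = 0.000256).

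Pramel4 (ENSMUSG00000073724.12, chr4:144059126-144069327) first exceeded 1 FPKM at L2C. It was at 10.8 and 10.7 FPKM in controls and 3.28, 2.30 and 2.43 FPKM in knockouts, and fell by 1.69 ± 0.19 (adjusted p = 0.00055). Its knockout difference shifted by -1.51 ± 0.37 from E2C to L2C (adjusted p = 0.0153), but not past the threshold without control replicate 1 or 2 of L2C (adjusted p = 0.06 and 0.058), with a pseudocount of 0.1 (adjusted p = 0.422) or with scaling to a common total (adjusted p = 0.145). Pramel4 passed the filter of that fit only through L2C, and this scale leaves little room for a difference at E2C. Summed with Gm13102, its near-identical copy, the difference at L2C was -1.67.

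Pramel5 (ENSMUSG00000036749.15, chr4:144270633-144280488) is the closest relative of Pramel4 among the members and did not pass the test. It was at 5.89 and 5.17 FPKM in controls and 6.18, 3.42 and 4.30 FPKM in knockouts. The groups overlapped, with a difference of -0.24 ± 0.23 (adjusted p = 0.445). In each library the level of Pramel4 was compared with that of Pramel5 as a difference of log2(FPKM + 1). That difference was 0.78 and 0.92 in the controls and -0.75, -0.42 and -0.63 in the knockouts. Pramel4 was thus the higher of the 2 genes in both control libraries and the lower in all 3 knockout libraries. The means differed by -1.45, with p = 0.2 in a two-sided exact permutation test, which is the smallest p that the 10 arrangements of 2 and 3 libraries allow. This ratio was chosen after the values were seen. Of the exonic words of Pramel5 22.9% are also in Pramel4, and of those of Pramel4 85.0% are in Gm13102. Gm13102 was not added to the ratio, which may thus depend on how reads were divided between these genes.

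Pramel1 (ENSMUSG00000041805.3, chr4:143394428-143400160) was at 6.73 and 9.41 FPKM in controls and 3.91, 4.13 and 3.46 FPKM in knockouts at L2C. The groups were apart, and it fell by 0.89 ± 0.20 (adjusted p = 0.009), a call that was lost without control replicate 2 (-0.68, adjusted p = 0.0762).

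Pramef25 moved the other way. At L2C it was at 15.4 and 13.3 FPKM in controls and at 43.9, 31.1 and 34.5 FPKM in knockouts. Every knockout library was above 30 FPKM and both controls were below 16 FPKM, and Pramef25 rose by 1.28 ± 0.16 (adjusted p = 0.000806). From E2C to L2C the change in controls was -0.31 ± 0.23 (adjusted p = 0.281), and in knockouts it rose by 1.76 ± 0.21 (adjusted p = 2.65e-05). The knockout difference shifted by 2.07 ± 0.31 between the 2 stages (adjusted p = 0.00145), from 0.56 times the control mean at E2C to 2.55 times at L2C. Pramef25 and Pramel4 were the 2 of 10 members whose knockout difference shifted between E2C and L2C. At this step 16.7% of all genes did, so that nothing is read from the count. Pramef25 shares 96.95% of aligned coding bases with BC080695, another PRAME family gene, which fell at E2C and rose at L2C in knockouts. The 2 genes were not summed, so the values of Pramef25 may depend on how reads were divided between them.

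Pramef12 declined further. The L2C controls held 32.5 and 24.4 FPKM and the knockouts 44.1, 48.3 and 50.9 FPKM. All 3 knockout values were above both controls, and it rose by 0.74 ± 0.14 relative to controls (adjusted p = 0.00462). Since E2C it had fallen by 1.32 ± 0.16 in controls (adjusted p = 2.64e-05) and by 1.12 ± 0.14 in knockouts (adjusted p = 5.43e-05).

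The other 3 members did not pass the test at L2C. Pramef8 was at 10.8 and 12.0 FPKM in controls and 11.4, 14.7 and 11.7 FPKM in knockouts, which overlap. Pramef17 was at 5.71 and 7.04 FPKM against 6.47, 3.70 and 4.55 FPKM, with a difference of -0.34 ± 0.23 (adjusted p = 0.275). Its coding sequence is 99.3% identical to that of Gm13128, which was at 12.2 and 13.2 FPKM in controls and 3.17 to 3.90 FPKM in knockouts and fell by 1.58 ± 0.17 (adjusted p = 0.000441). The sum of the 2 genes differed by -1.09, so the value of Pramef17 depends on how reads were divided between them. Pramel3 (ENSMUSG00000067360.12, chrX:135302307-135312652) was at 3.53 and 2.89 FPKM in controls and 3.04, 5.07 and 2.68 FPKM in knockouts, with overlap and a difference of 0.10 ± 0.26.

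Pramel7 and Pramef17, alike in coding and upstream sequence, were compared within libraries in the same way. The level of Pramel7 relative to Pramef17, as a difference of log2(FPKM + 1), was 3.80 and 3.15 in L2C controls and 1.44, 0.90 and 0.87 in knockouts. The means differed by -2.40 (two-sided exact permutation test, p = 0.2, again the smallest possible), and this ratio too was chosen after the values were seen. With Gm13128 added to Pramef17, which shares most of its sequence, the values were 2.30 and 1.75 in controls and 0.85, 0.16 and 0.10 in knockouts, and the means differed by -1.66 (two-sided exact permutation test, p = 0.2).

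The sum of the 10 genes at L2C was 193 ± 23.2 FPKM (SD, n = 2) in L2C controls and 134 ± 11.4 FPKM (SD, n = 3) in knockouts. As shares of the summed group means, Pramel7 was 42.1% in controls and 8.99% in knockouts, Pramef12 was 14.8% and 35.6%, and Pramef25 was 7.43% and 27.2%. At E2C the sums were 120 ± 9.04 FPKM (SD, n = 3) and 131 ± 14.7 FPKM (SD, n = 3), with Pramef12 at 60.1% and 80.9%. In the order of levels at L2C, controls ran from Pramel7 through Pramef12, Pramel6, Pramef25, Pramef8 and Pramel4 to Pramel1, Pramef17, Pramel5 and Pramel3. Neighbours in this order whose control values overlap are Pramef12 and Pramel6, Pramef8 and Pramel4, Pramel1 and Pramef17, and Pramef17 and Pramel5. By their means in knockouts Pramef12 stood first and Pramef25 second, and Pramel4 was last, with values that overlapped those of Pramel3.

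**Figure D4:**
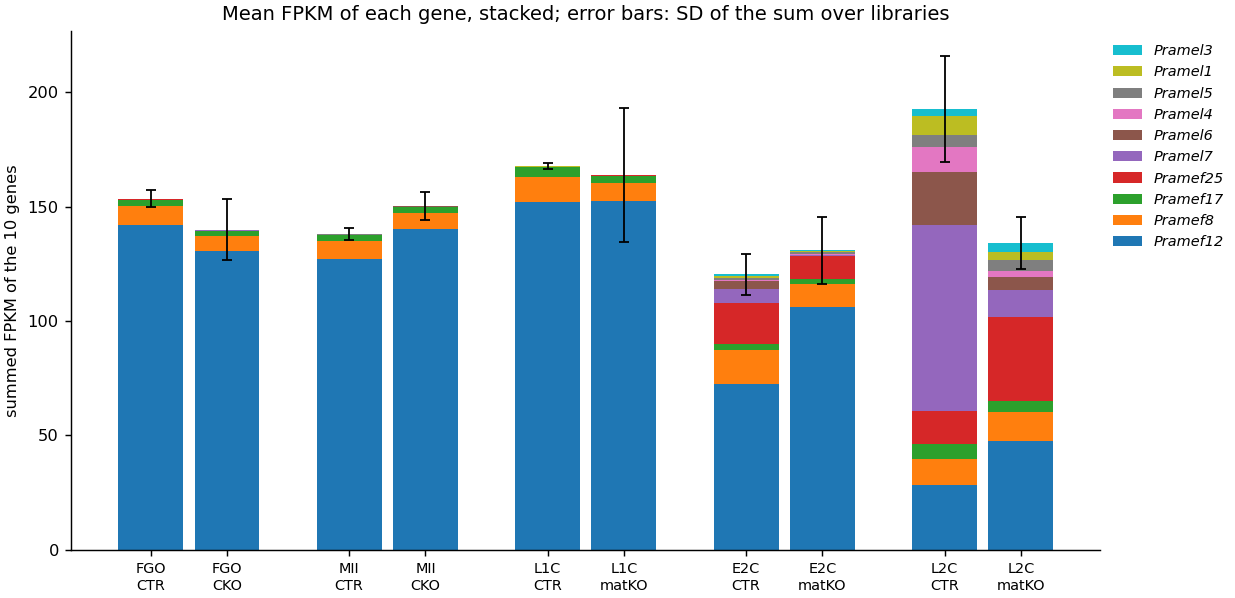
Summed FPKM of the 10 genes in each group, stacked by the mean of each gene (colours). Error bars are the SD of the sum over the 2 or 3 libraries of a group, and CTR, CKO and matKO are controls, conditional knockouts and maternal knockouts. Pramef12 makes up most of every bar up to E2C, while at L2C Pramel7 is 42.1% of the control bar and 8.99% of the knockout bar.

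For the 9 members with a group mean of at least 5 FPKM, which leaves out Pramel3, the genes whose levels followed each most closely were found by Pearson's r over the 10 group means among 8135 genes, a description with no test. All PRAME family genes, members included, were left out of the search, as were genes with Gm numbers, Rik names or clone names. Whether a family gene followed a member more closely was thus not looked at. All r were over 0.95, and the points share libraries and rest mainly on the contrast between 2-cell and earlier stages. Pramel7 was closest to Dkkl1 and Ccdc137, Pramel6 to Obox6 and Ccdc137, and Pramel4 to AI506816 and Zgpat. Obox6, a homeobox gene transcribed in 2-cell embryos, had group means of 103 FPKM in L2C controls and 18.9 FPKM in L2C knockouts. Pramef25 was closest to AF067061 and Zfp352. Zfp352, a zinc finger gene of the 2-cell stage, had means of 58.4 and 21.4 FPKM in E2C controls and knockouts and of 32.7 and 105 FPKM at L2C, the same crossing of the genotypes. Pramef12 was closest to Wdr76 and Ano10, Pramel1 to Khdrbs1 and Rilpl2, Pramel5 to Strn3 and Xpot, Pramef8 to Bbof1 and Rai14, and Pramef17 to Tbrg4 and Slc25a39.

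Among 27 genes of the 2-cell transcriptional programme, 5 fell and 1 rose at E2C in knockouts, with a median difference of -0.82 against 0.03 for all genes tested, of which 5.87% fell and 4.25% rose. Obox6 fell by 1.98 ± 0.25 (adjusted p = 0.00353), and Duxf3, which encodes the DUX factor that activates many of them, rose by 2.05 ± 0.22 (adjusted p = 0.00179). At L2C 19 of the 27 rose and 4 fell, with a median of 1.22 against 0.03, while 19.0% of all genes rose and 19.5% fell. Zscan4f rose by 2.37 ± 0.14 (adjusted p = 6.29e-05), and Obox6 fell by 2.43 ± 0.23 (adjusted p = 0.000281). The summed level of 7 markers of this programme was 131 to 137 FPKM in L2C controls and 373 to 469 FPKM in knockouts. At E2C it was 240 to 319 FPKM in controls and 107 to 219 FPKM in knockouts. All 7 markers rose at L2C, and the 4 genes that fell there (Obox6, Tdpoz2, Tdpoz4 and Ubtfl1) are not in this sum. The part of this programme in the values of Pramel7, Pramel6, Pramel4, Pramel1 and Pramef25 was not tested.

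Among 22 maternal oocyte factors, genes that like Pramef12 are abundant in the oocyte, 14 of the 21 tested rose at L2C in knockouts and 0 fell, with a median of 0.58 against 0.03. Over all genes 19.0% rose and 19.5% fell at this stage. Obox1 rose by 1.41 ± 0.09 (adjusted p = 0.00012) and Ooep, part of the subcortical maternal complex, by 1.37 ± 0.12 (adjusted p = 0.000245). At E2C 1 of the 21 rose and 2 fell, with a median of -0.02. That is not far from the 4.25% and 5.87% of all genes, so that nothing is read from the count. Summed oocyte markers were 283 to 287 FPKM in L2C controls and 473 to 556 FPKM in knockouts. Their part in the level of Pramef12 was not tested.

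Genes of the CUL2 ligase and UHRF1 pathway, with which PRAMEL7 acts, were also counted. At E2C 2 of 10 rose and 1 fell in knockouts, where 4.25% of all genes rose and 5.87% fell, with a median of 0.05 against 0.03. Dnmt3a, a de novo DNA methyltransferase, rose by 0.96 ± 0.20 (adjusted p = 0.0224), and Dnmt3b rose by 0.66 ± 0.17 (adjusted p = 0.0433). Eloc was the gene that fell, with means of 58.7 FPKM in controls and 38.7 FPKM in knockouts. Some of these genes differed before E2C, when Pramel7 was under 1 FPKM. Dnmt3a had risen in knockout FGO and L1C, though not in MII, and Dnmt3b in L1C. Cul2 had fallen in knockout MII and L1C. At L2C 3 of 10 rose and 0 fell, not far from the 19.0% and 19.5% of all genes, so that nothing is read from the count, and the median was 0.34 against 0.03. Dnmt3a rose by 1.26 ± 0.24 (adjusted p = 0.00517) and Uhrf1 by 1.01 ± 0.12 (adjusted p = 0.000585), from 32.5 and 32.8 FPKM in controls to 59.1 to 74.0 FPKM in knockouts. Cul2, the ligase scaffold, differed by -0.38 ± 0.16 (adjusted p = 0.0913). These are transcript levels, and protein was not measured in the libraries.

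The other 43 PRAME family genes give the setting of the 10. Of the 17 that passed the filter in FGO, 9 fell and 0 rose in knockouts, with a median of -0.52 against -0.01 for all genes, and in MII and L1C 8 and 12 of 17 fell and 0 rose. Over all genes 7.00% fell in FGO, 7.84% in MII and 8.71% in L1C. These counts rest on the few controls: without either control library 0 of the 17 fell in FGO, where the calls over all genes dropped from 964 to 15 without control replicate 2, and 1 fell in MII, while 5 and 4 fell in L1C without control replicate 1 and 2. Of the 3 members tested 0 fell at these stages, and the difference between the 2 sets was not tested. The medians of the 17 were -0.430 in MII and -0.405 in L1C, against 0.002 and 0.032 for all genes. The 4 most abundant other genes, all among the 12 that fell in L1C, are given as examples. Gm13084 was at 503 to 510 FPKM in L1C controls and 315 to 341 FPKM in L1C knockouts. Oog3, an oogenesin gene, was at 352 to 357 and 201 to 211 FPKM, Gm13023 at 341 to 348 and 218 to 235 FPKM, and Gm10436 at 282 to 313 and 212 to 222 FPKM. At E2C 5 of 29 fell and 0 rose, with a median of -0.11 against 0.03, and 1 or 2 fell in each of the 6 fits without 1 library. Over all genes 5.87% fell and 4.25% rose at E2C. At L2C 15 of 30 rose and 5 fell (12 and 2 without control replicate 1), with a median of 0.42 against 0.03, and the values ran from -1.79 in Gm16427 to 2.39 in Gm12794. Over all genes 19.0% rose and 19.5% fell at L2C, so that nothing is read from the number of other family genes that fell. The 10 members and the other genes thus both held risers and fallers at L2C. Many of the other genes share most of their exonic words with each other, so single values among them are uncertain.

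**Figure D5:**
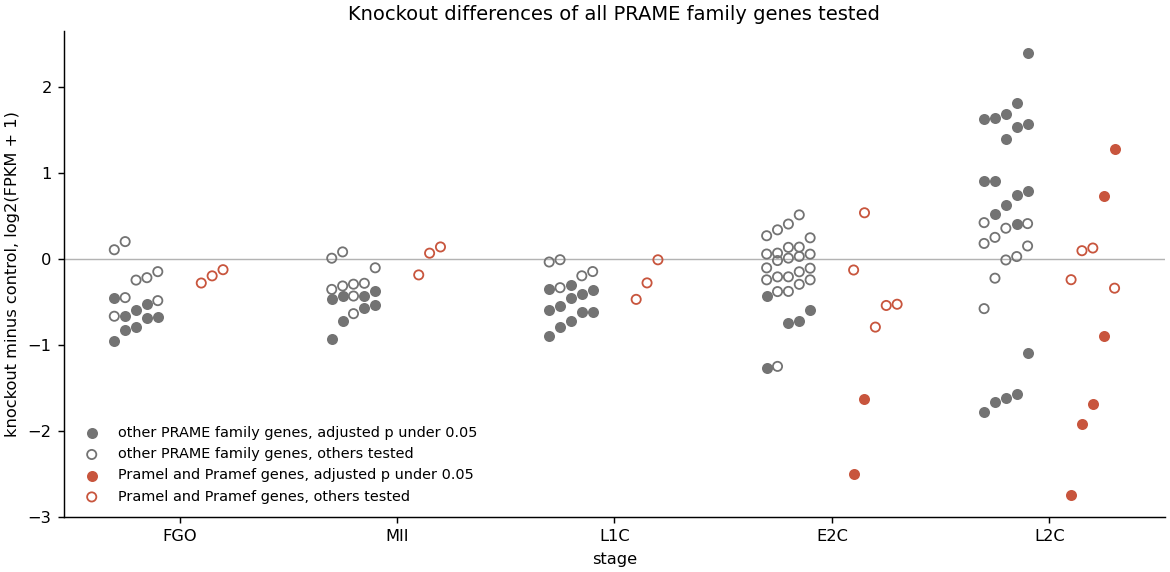
Difference between Bap1 knockout and control means of log2(FPKM + 1) at each stage for every PRAME family gene tested. Grey points are the other family genes (17 tested in FGO, MII and L1C, 29 at E2C and 30 at L2C), red points are the 10 genes described here, and filled points have an adjusted p under 0.05. Grey filled points lie below 0 up to E2C and on both sides at L2C, where they run from -1.79 (Gm16427) to 2.39 (Gm12794).

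At embryonic day 6.5 the 10 genes were at or near 0, apart from Pramef8 and Pramef12. In the 11 poly(A) libraries, 8 of the 10 genes were at or below 0.115 FPKM in every library. Pramef8 stayed between 1.45 and 7.34 FPKM, with 3.28 and 3.04 FPKM in control epiblast and 4.82 and 7.34 FPKM in maternal knockout epiblast. In visceral endoderm it was at 1.78 and 2.79 FPKM in controls and 1.45 and 4.64 FPKM in knockouts. The 1 control library of extraembryonic ectoderm had 2.00 FPKM and the knockouts 3.39 and 3.59 FPKM. Pramef12 was highest in that tissue, at 3.20 FPKM in the control and 4.47 and 1.52 FPKM in the knockouts, and reached at most 1.85 FPKM in the other lineages. Levels of these libraries are not set against the total RNA libraries, which were made by another method.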

How the data were processed

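RNA was sequenced from 37 mouse libraries, 26 of total RNA and 11 of poly(A) RNA. Values are FPKM as the authors deposited them, per the file headers, in 1 table for each kind of library, with the total used for scaling not given in the sources used here and the read depth unknown. The submitters' processing notes name Trim Galore 0.6.6, STAR 2.7.9, StringTie 2.1.7 and mm10. The annotation, filters and handling of reads with several matches are not given in the sources used here. In 1 deposited column of other values (control epiblast replicate 1), Gm24888 is listed just below 0 among the FPKM and was set to 0.

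Differences were tested with limma 3.58.1 in R 4.3.3 on log2(FPKM + 1), with an intensity trend in the variance, for genes that reached 1 FPKM in 2 or more libraries of the fit. Each stage was fitted alone for the knockout difference, and consecutive stages were fitted together for stage changes and for shifts of the knockout difference. Benjamini-Hochberg adjustment was over all genes tested. The script was tested on simulated data. The members and gene lists were chosen with earlier results of these data known. Members with a group mean of at least 5 FPKM have their values given by library, with stages near 0 given as ranges, and Pramel3 was added. The 2 genes most like a member were those of highest Pearson's r among the genes searched, which held no PRAME family gene. Replicate numbers were not taken to pair libraries: the deviations of same-numbered libraries correlated at 0.056, 0.047 and -0.092 at E2C, the stage with 3 pairs, and at -0.038 to 0.167 at the 4 stages with 2 (0.108 and 0.101 in FGO). Replicates differed from each other, with at most 0.0089% identical values above 0.

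Sequences came from RefSeq (GRCm38.p6) and positions from GENCODE M21, which held 55141 of the 55401 gene identifiers regardless of version. Other steps used Python 3.11.15, pandas 2.3.3, Biopython 1.88 and matplotlib 3.10.9. Protein sequences were not used here, and a RefSeq window was not used for Pramef8.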

Additional observations from a re-analysis of the deposited data

Results flagged for a closer look

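The knockout difference of 3 members shifted between consecutive stages by a test of the shift itself (limma, adjusted over all genes). Between L1C and E2C 1 of 7 members shifted, against 0.337% of all genes. Between E2C and L2C 2 of 10 members shifted, against 16.7% of all genes. Nothing is read from these counts. For Pramel7 the knockout difference shifted by -2.51 ± 0.25 from L1C to E2C (adjusted p = 0.00173), with all 3 E2C knockout libraries under 0.4 FPKM and all 3 controls over 5 FPKM. Pramel7 passed the filter of this fit only through those controls. The direction of this shift was thus set by the filter, and the test describes its size only. The shift had an adjusted p of 0.125 with a replicate block and of less than 0.05 in the other 18 alternatives. For Pramef25 it shifted by 2.07 ± 0.31 from E2C to L2C (adjusted p = 0.00145), from 3 of 3 knockout libraries below the controls to 3 of 3 above them, and it passed the test in all 20 alternatives. For Pramel4 it shifted by -1.51 ± 0.37 from E2C to L2C (adjusted p = 0.0153), with 3 of 3 L2C knockout libraries below the controls. It passed in 14 of 19 alternatives, and had an adjusted p of 0.422 with a pseudocount of 0.1. Pramel4 passed the filter of this fit only through its L2C values. At E2C all its values were under 1 FPKM, where log2(FPKM + 1) leaves little room for a difference. The shift thus mainly restates the difference at L2C.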

How the results depend on the processing

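The number of members called was the same, within 1.5 times, in 275 of 305 recomputed counts over 17 comparisons, and 650 of 695 recomputed values of single members kept their direction and their side of the threshold. The knockout differences of Pramel7 at E2C and L2C, and of Pramel6, Pramel4, Pramef25 and Pramef12 at L2C, passed the test in all 14 alternatives each. Scaling to a common total moved the median knockout difference of all genes from 0.03 to 0.16 at L2C and from 0.03 to 0.13 at E2C.

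Counts of members called that moved were as follows. With the replicate block 1 member was called in knockout L1C instead of 0, 4 in knockout E2C instead of 2, and 0 for the shift between L1C and E2C instead of 1. In knockout E2C the count was 1 with a pseudocount of 0.1, with no filter, with a mean of at least 5 FPKM and with eBayes without trend, and 6 with all 26 libraries in 1 fit. From MII to L1C it was 3 instead of 0 in controls with median centring, and 1 instead of 0 in knockouts with no filter. From L1C to E2C it was 2 instead of 5 in controls with a mean of at least 5 FPKM, and in knockouts 4 instead of 2 with a pseudocount of 0.1 or median centring and 5 with all 26 libraries in 1 fit. The shift between L1C and E2C had 0 members with a mean of at least 5 FPKM and 2 with all 26 libraries. From E2C to L2C a mean of at least 5 FPKM gave 3 instead of 8 in controls and 4 instead of 9 in knockouts. The shift between E2C and L2C had 1 member instead of 2 with a pseudocount of 0.1, with a mean of at least 5 FPKM, and with scaling to a common total with or without Gm23935, the latter chosen after seeing the data. A mean of at least 5 FPKM tests fewer members. Elsewhere the cause was not tested. Leaving out each library in turn gave 1 to 2 members in knockout E2C, 0 to 2 from MII to L1C in controls, 1 to 2 for the shift between L1C and E2C, and 1 to 2 for that between E2C and L2C.

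Values that changed sign were small or missed the threshold. Pramef12 in knockout L1C was 0.04 with scaling to a common total, 0.03 without Gm23935, 0.06 with the replicate block, and -0.15 to 0.06 with 1 library left out. Pramef17 ran from -0.40 to 0.00 in FGO and from -0.28 to 0.14 in E2C with 1 library left out, and was -0.03 in MII when summed with Gm13128. Pramel3 in L2C ran from -0.12 to 0.24. The shift of Pramel7 between E2C and L2C was 1.46 with a pseudocount of 0.1, 0.73 with scaling to a common total and 0.78 without Gm23935. Pramef8 in knockout L1C was called with the replicate block (adjusted p = 0.0271), and Pramef12 in knockout E2C in 6 of 15 alternatives.

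Counts over all genes moved more. Leaving out 1 control library gave as few as 15 instead of 964 genes in FGO (without replicate 2), 157 instead of 1364 in MII (without replicate 2), 238 instead of 1657 in L1C (without replicate 1) and 2878 instead of 4893 in L2C (without replicate 1). In E2C the range was 165 with no filter to 4407 with all 26 libraries, against 1193. For the shift between L1C and E2C it was 1 with the replicate block to 710 with all 26 libraries, against 43. For that between E2C and L2C it was 1265 without a control library of L2C to 4622 with all 26 libraries, against 2346. It was 0 to 41 between MII and L1C, against 6, and 0 to 8 between FGO and MII, against 0. For stage changes in controls and knockouts the lowest counts were 210 and 361 from FGO to MII (507 and 1315), 1658 and 414 from MII to L1C (3269 and 2021), 4082 and 3472 from L1C to E2C (6238 and 6082), and 4436 and 3890 from E2C to L2C (7674 and 6898). Depth is unknown in these files, so levels near 0 cannot be given a detection limit.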
